A study of Trametes coccinea with 18 samples.

Results

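The genes described here are 108 of the 12690 gene models of the white-rot fungus Pycnoporus coccineus CIRM-BRFM 310 (Pycco 310), namely those transcribed at a similar level on aspen, pine and wheat straw and less on maltose and Avicel. The level of a gene on a carbon source was taken from its normalized counts, that is raw counts divided by the size factor of the library, as log2(count + 1) averaged over the 3 libraries. A gene was a member when its level on each of the plant substrates lay at least 1.5 log2 above its levels on both maltose and Avicel, and when the plant levels spanned less than 1 log2. Of 110 genes within these limits, 2 were among 11 identifiers set aside beforehand, which left the 108 members. The levels on these 5 carbon sources chose the members, so differences of the plant substrates from maltose and Avicel, and among the plant substrates, are given as a description.

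Pycco 310 was grown in liquid medium and its polyA RNA was sequenced from mycelium on day 3, with 3 libraries per carbon source (n = 3). The cultures held 15 g/l of xylan-galactomannan, ground aspen wood (hardwood), ground pine wood (softwood), ground wheat straw (a grass) or Avicel (a model cellulose), each together with 2.5 g/l of maltose, or they held 20 g/l of maltose alone, as the sample labels have it. The study's methods instead name each plant substrate and Avicel as the sole carbon source, and which applies could not be settled from the data. All 18 cultures were of one strain, in a medium with yeast extract. Xylan-galactomannan was not used to choose the members and is therefore the measurement that is compared and tested below. Each library is a bulk sample of mycelium, in which fewer cells transcribing a gene and less RNA per cell cannot be told apart.

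White-rot fungi live on wood and straw by secreting hydrolases and oxidoreductases that open cellulose, hemicellulose, pectin and lignin, and by taking up the sugars and small aromatic compounds that are set free. Xylan and galactomannan are hemicelluloses, the branched polysaccharides that coat cellulose in plant cell walls. Inside the cell, cytochromes P450 and NAD(P)H-dependent reductases modify aromatic and sugar compounds, and major facilitator transporters carry sugars and other small molecules across membranes.

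Between 26370228 and 42190522 counts per library fell on the gene models, with 6.83 to 11.1% of them in the top 10 genes of a library. Replicate libraries correlated with r of 0.975 to 0.992 across genes (genes are not independent replicates). The third xylan-galactomannan library goes by that name in its title and agent, whereas its description names wheat straw. Across all genes it correlated with the other xylan-galactomannan libraries at r = 0.975 to 0.986 and with the wheat straw libraries at 0.974 to 0.975, while the other xylan-galactomannan libraries correlated with wheat straw at 0.944 to 0.960. Its higher correlation was not limited to wheat straw. With aspen it was 0.963 to 0.971, against 0.946 to 0.957 for the other xylan-galactomannan libraries. With Avicel it was 0.947 to 0.954, against 0.921 to 0.942, and pine and maltose went the same way. Counts of members called on xylan-galactomannan are given with and without the third xylan-galactomannan library, and counts over the gene lists only with it.

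On the plant substrates, the 108 members had a median level of 10.10 log2 (aspen), 10.16 (pine) and 9.98 (wheat straw), against 7.42 on Avicel and 6.46 on maltose. Over all genes the median level stayed between 8.94 and 9.08 log2 on every carbon source. The members took 2.41 to 3.12% of the counts of the plant libraries, against 0.588 to 0.686% on Avicel and 0.404 to 0.567% on maltose. From the lowest plant level to the higher of Avicel and maltose, the gap of a member had a median of 1.95 log2 and ran from 1.502 to 5.46. It exceeded 2 log2 in 51 members and 3 log2 in 12. The plant levels of a member spanned a median of 0.53 log2, and the highest of them was that on pine in 43 members, on aspen in 33 and on wheat straw in 32. As a description of that choice, edgeR called 105 members higher on aspen than on maltose, 104 on pine and 105 on wheat straw, beside 19.7%, 21.9% and 17.7% of all genes tested, and against Avicel 103, 104 and 103 members, beside 14.6%, 22% and 12.9%. By the choice of members, 0 were lower on a plant substrate than on maltose (beside 14.4%, 18.1% and 12.4% of all genes for aspen, pine and wheat straw) or Avicel (beside 10.6%, 20.7% and 8.75%). Between the plant substrates 1 member was called, 1378769, lower on pine than on wheat straw, where the background was 11% higher and 10.6% lower, with 8.85% and 7.77% for pine against aspen and 6.43% and 4.26% for aspen against wheat straw.

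Just inside the limit on the gap were 1417875, 1438012 and 1257064, with gaps of 1.502, 1.511 and 1.529 log2. Just outside were 1461735, 725099 and 1479204, with gaps of 1.499, 1.498 and 1.497 log2. For the span of the plant levels, 1703, 1378769 and 1374769 were just inside at 0.97, 0.96 and 0.96 log2, and 405194, 1415569 and 1438496 just outside at 1.00, 1.01 and 1.02. With a gap limit of 1 log2 the rule would take 260 genes, and with 2 log2 it would take 51, so the number of members is set by the limit.

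**Figure D1:**
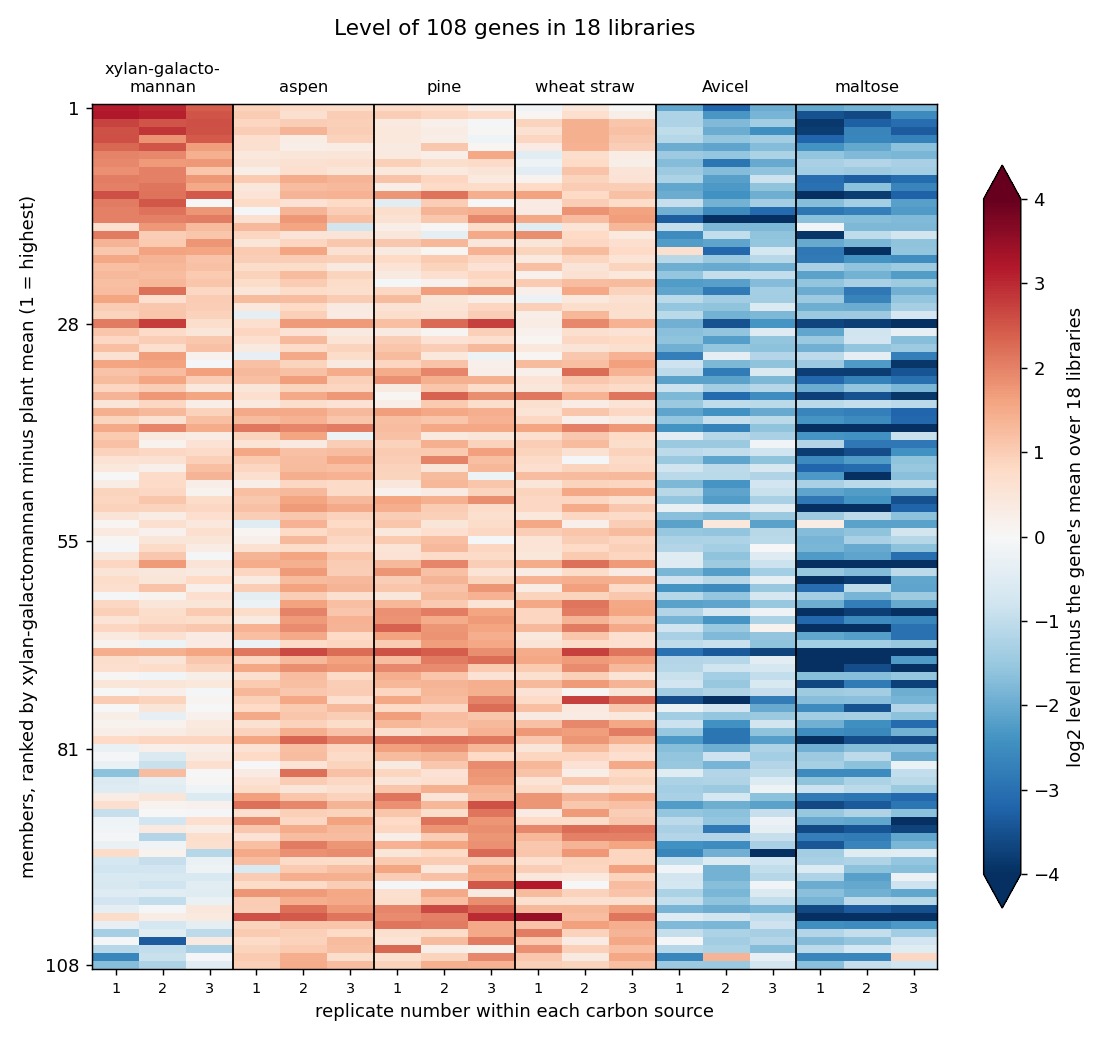
Level of the 108 members in the 18 libraries, as the log2 level minus the gene's mean over all libraries (red above, blue below). Columns are the 3 libraries of each carbon source, and rows run from the member highest to the member lowest on xylan-galactomannan relative to the plant substrates. The aspen, pine and wheat straw columns are red and the Avicel and maltose columns blue, which the choice of members fixed. The xylan-galactomannan columns pass from dark red at the top, with a difference from the plant mean of up to 2.38 log2, to blue at the bottom, with -2.28 log2.

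The 108 members were of ordinary length, with a median of 1234.5 bases against 1264 bases over all gene models. Compared per length, as RPKM (reads scaled to the model's mappable length and the library's total), their median over the plant libraries was 26.7, against 13.4 RPKM over all genes. The range was wide, from 0.153 to 5608 RPKM, with 26 members over 100 RPKM and 9 under 1 RPKM. The deposited tables give no gene names, and the annotation used here comes from the study's lists of 289 selected genes, which were chosen on these libraries. Those lists hold 22 of the members, 13 of them with a CAZy family, a KOG class or an EC number. Of the 22, 6 have a predicted signal peptide for secretion and 16 have none, and 2 were detected as proteins in the culture medium. For the other 86 members no role is stated.

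On xylan-galactomannan, most of the 108 members stood well above maltose and Avicel. Their median level was 9.88 log2, with 9.75 to 9.87 in the single libraries, and they took 2.73 to 3.68% of the counts. The median difference of a member was 2.84 log2 from maltose and 2.02 log2 from Avicel, against -0.04 and 0.02 log2 over all genes tested. In edgeR, 93 members were called higher than on maltose (a log2 fold change above 1 with an adjusted p below 0.05), where 19.4% of all 11168 genes tested were. Against Avicel, 89 members were called higher, beside 16.3% of all genes. Both calls were made for 87 members, beside 8.86% of all genes. No member was called lower on either comparison (0 members, where 14.5% and 14.2% of all genes were called lower than on maltose and Avicel). At an unadjusted p under 0.05 edgeR also gave 0 lower members in both comparisons, and DESeq2 called 0.

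These comparisons share the xylan-galactomannan libraries, and the members were picked for low levels in the maltose and Avicel libraries, which favours higher calls against them. The low-count filter kept 106 of the 108 members. Those it left out were 1070477 and 1472466, with 4, 5 and 6 raw counts and 5, 9 and 9 raw counts in the xylan-galactomannan libraries. Library by library, all 3 xylan-galactomannan libraries lay above all 6 maltose and Avicel libraries in 88 members, beside 15.8% of all genes, and in 89 members without the third xylan-galactomannan library, beside 23.2%. Without that library, 92 members were called higher than on maltose, beside 20.0% of all genes, 84 higher than on Avicel, beside 17.6%, and 83 higher than on both. For both together, the share of all genes in that fit is not given here.

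Set against the plant substrates themselves, xylan-galactomannan gave a median difference of -0.40 log2 from the mean of the plant levels, against 0.02 over all genes tested. The difference was within 1 log2 for 67 of the 108 members, where it was for 73.1% of all genes tested. It was at least 1 log2 above for 12 members and at least 1 log2 below for 29, and the shares of all genes on each side are not given here. Against aspen, 11 members were called higher and 21 lower on xylan-galactomannan, beside 11.1% and 13.3% of all genes. Against pine the counts were 11 higher and 33 lower, beside 18.1% and 18.5%, and against wheat straw 11 higher and 25 lower, beside 11.2% and 12.1%. The share of members called higher was thus near or under that of all genes, and the share called lower was above it, at 19.4% against aspen, 30.6% against pine and 23.1% against wheat straw. Since members had been picked for high plant levels, lower calls on xylan-galactomannan are favoured by the choice. Without the third xylan-galactomannan library 14 members were higher and 23 lower than on aspen, beside 13.2% and 16.5% of all genes in that fit. For pine it gave 12 higher and 34 lower, beside 19.2% and 20.7%, and for wheat straw 13 and 27, beside 13.8% and 16.5%.

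Taking the plant substrates jointly, 8 members were called higher on xylan-galactomannan than on all of them, beside 4.11% of all genes, and 16 were called lower than on all of them, beside 6.44%. A further 27 members had a call against only some of the plant substrates, 21 of them lower and 6 higher. The share of all genes with such partial calls is not printed here. The other shares in this paragraph leave a larger part of all genes with them than of the members. The other 57 members had none, of which 55 were tested, close to the 50.4% of all genes tested that had none, and a missing call does not show that the levels are equal. Without the third xylan-galactomannan library, 11 members were higher and 17 lower than on all the plant substrates, and 53 had no call against any. The shares of all genes for these joint counts are not given for that fit, and those of the main fit need not carry over.

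**Figure D2:**
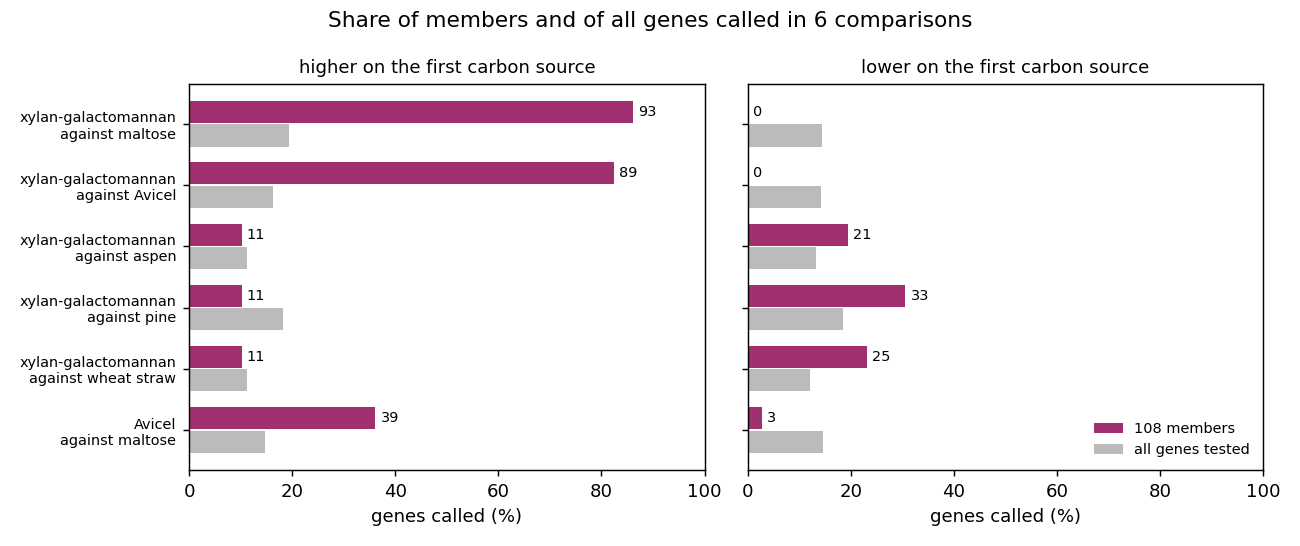
Share of the 108 members (magenta, with their number) and of the 11168 genes tested (grey) that edgeR called higher (left) or lower (right) on the carbon source named first, in percent. Members were called higher on xylan-galactomannan than on maltose in 93 cases and lower in 0, while against aspen, pine and wheat straw 11 were higher and 21, 33 and 25 lower.

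**Figure D3:**
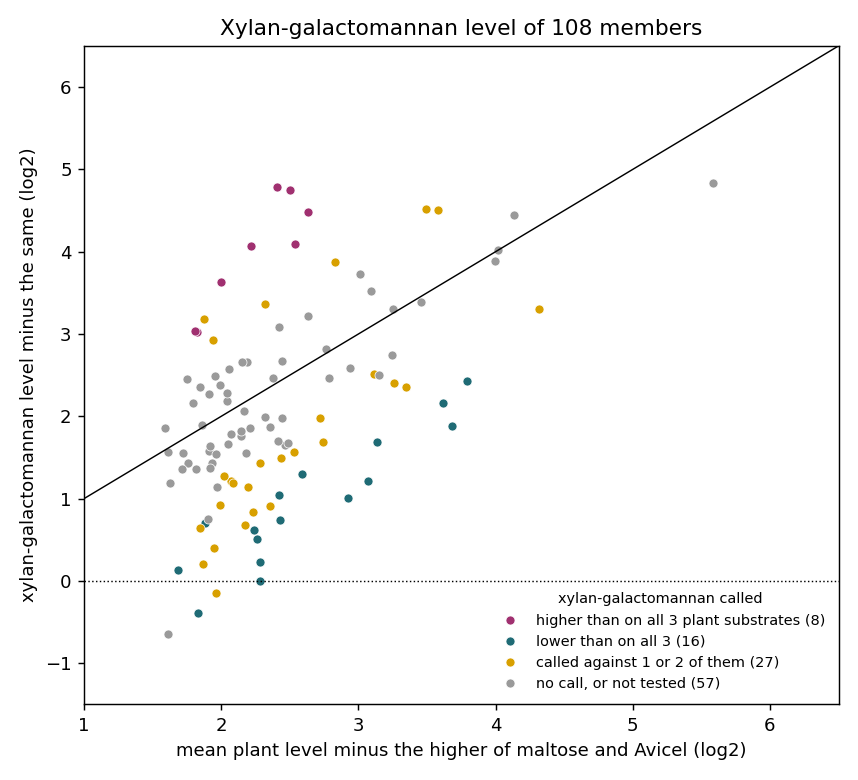
Level of each of the 108 members on xylan-galactomannan (vertical axis) and the mean of its plant levels (horizontal axis), both in log2 above the higher of its maltose and Avicel levels. Points on the solid line have equal levels on xylan-galactomannan and the plant substrates, and the dotted line marks the higher control level. Colours give the edgeR calls of xylan-galactomannan against aspen, pine and wheat straw, with 8 members higher than all of them and 16 lower than all of them; 3 members lie under the dotted line.

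CAZy families were read only from the study's lists, which hold 22 of the members. There the only member with one was 1357629, a predicted secreted enzyme of GH51. Enzymes of GH51 are mostly alpha-L-arabinofuranosidases, which remove arabinose from hemicellulose and pectin side chains. The protein of 1357629 is among those detected in the culture medium. It had 10924, 11706 and 15697 normalized counts on xylan-galactomannan, against 12286, 11181 and 13915 on aspen, 14066, 19582 and 6022 on pine and 5797, 23583 and 13034 on wheat straw. On Avicel it had 2398, 713 and 3342 normalized counts and on maltose 366, 358 and 452. The xylan-galactomannan libraries lay within the range of the plant libraries and above all Avicel and maltose libraries, and the pine and wheat straw libraries differed among themselves by over 3-fold. Its log2 fold change on xylan-galactomannan was 5.06 (standard error 0.58, edgeR adjusted p = 9.47e-07) against maltose and 2.54 (standard error 0.52, edgeR adjusted p = 0.000605) against Avicel. As a description, since both levels entered the rule, it was also higher on Avicel than on maltose, by 2.52 (standard error 0.52).

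The member 1452937 carries the KOG class of major facilitator transporters, a predicted signal peptide and the EC number of an L-arabinose isomerase, and these name different functions, so its role is unsettled. It had 5361, 5356 and 6378 normalized counts on xylan-galactomannan, against 7373, 9134 and 8047 on aspen, 12279, 11067 and 11832 on pine, 11011, 18508 and 14276 on wheat straw, 2681, 909 and 2886 on Avicel and 1272, 887 and 572 on maltose. The xylan-galactomannan libraries were below all plant libraries and above all Avicel and maltose libraries. Its log2 fold change was 2.69 (standard error 0.36, edgeR adjusted p = 5.18e-06) against maltose and -1.37 (standard error 0.34, edgeR adjusted p = 0.00403) against wheat straw. The call against pine, -1.002 (standard error 0.34, edgeR adjusted p = 0.0177), sat at the fold limit and was lost without pine replicate 1, at -0.97, without xylan-galactomannan replicate 1, at -0.94, and without replicate 2, at -0.97.

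Among the oxidoreductases, 1369748 and 1435960 belong to one KOG class of cytochromes P450, heme enzymes that add oxygen to small molecules. The gene 1369748 had 5781, 5444 and 3391 normalized counts on xylan-galactomannan, against 3449 to 9066 over the plant libraries, 1434, 710.4 and 1681 on Avicel and 716, 662 and 759 on maltose. It rose on xylan-galactomannan by 2.80 (standard error 0.31, edgeR adjusted p = 6.09e-07) log2 against maltose and was not called against any plant substrate. For 1435960 the normalized counts were 1583, 1231 and 1576 on xylan-galactomannan, against 3744 to 8831 over the plant libraries, 591, 571 and 1122 on Avicel and 369, 353 and 406 on maltose. This second P450 thus took an intermediate place, with its xylan-galactomannan libraries below every plant library and above every Avicel and maltose library. Its log2 fold change against pine was -2.35 (standard error 0.26, edgeR adjusted p = 1.29e-06), and it was called lower than on aspen and wheat straw too, at -1.48 and -1.90 log2. Against maltose its log2 fold change was 2.00 (standard error 0.26, edgeR adjusted p = 4.88e-06), and against Avicel it stayed under the fold limit, at 0.91 (standard error 0.26, edgeR adjusted p = 0.00667).

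Aldo-keto reductases reduce aldehydes and sugars with NADPH, and 2 of the members are placed among them, 1370490 and 1378769. The first, 1370490, had 6324, 5809 and 3387 normalized counts on xylan-galactomannan, against 5022 to 20878 over the plant libraries, 269, 186 and 450.1 on Avicel and 974, 991 and 873 on maltose. Its log2 fold change on xylan-galactomannan was 4.06 (standard error 0.45, edgeR adjusted p = 1.1e-06) against Avicel and 2.47 (standard error 0.42, edgeR adjusted p = 7.11e-05) against maltose, and -1.44 (standard error 0.40, edgeR adjusted p = 0.00825) against wheat straw. The last of these calls was lost without wheat straw replicate 2, the library with the highest count, at -1.02 (edgeR adjusted p = 0.0578). The second, 1378769, had 27921, 24441 and 25440.3 normalized counts on xylan-galactomannan, against 4087 to 11384 over the plant libraries, 1793, 1261 and 1608 on Avicel and 295, 444 and 518 on maltose. Unlike 1370490, it was highest on xylan-galactomannan, where each library was above each plant library, and it is taken up again with its neighbours. A reductase of the short-chain dehydrogenase class, 1431545, with the EC number of 3-oxoacyl-[acyl-carrier-protein] reductase, had 13283, 11771 and 10131 normalized counts on xylan-galactomannan, against 5947 to 9568 over the plant libraries, 2126, 1633 and 2138 on Avicel and 644, 867 and 813 on maltose. Its libraries of xylan-galactomannan were all above those of the plant substrates, yet the differences were under the fold limit, from 0.39 to 0.74 log2. Against maltose it rose by 3.95 (standard error 0.21, edgeR adjusted p = 2.68e-10) log2.

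The amidase-class member 1429988 had 4901, 5411 and 4066 normalized counts on xylan-galactomannan, against 1137 to 4211 over the plant libraries, 315, 206 and 138 on Avicel and 161, 178 and 249 on maltose. It rose by 4.42 (standard error 0.43, edgeR adjusted p = 2.25e-07) log2 against Avicel, and its call against aspen, 1.16 (standard error 0.37, edgeR adjusted p = 0.0185), was lost without aspen replicate 1, at 0.85, and without xylan-galactomannan replicate 2, at 1.05 (edgeR adjusted p = 0.0572). For 1374769, in the class of regulatory subunits of cAMP-dependent protein kinase, which hold the kinase inactive until cAMP binds, the normalized counts were 2859, 2245 and 3299.6 on xylan-galactomannan, against 2222 to 8362 over the plant libraries, 1274, 1400.4 and 849 on Avicel and 1004, 1013 and 899.8 on maltose. This gene was lower on xylan-galactomannan than on pine, at -1.30 (standard error 0.26, edgeR adjusted p = 0.000436) log2, but was not called against aspen or wheat straw, and it was higher than on maltose by 1.57 (standard error 0.27, edgeR adjusted p = 7.97e-05). The libraries of 272503, whose KOG class and EC number name unlike functions, held 1740.2, 1794 and 2269 normalized counts on xylan-galactomannan, against 1115 to 4627 over the plant libraries, 414, 268 and 381 on Avicel and 200.2, 248 and 383 on maltose. It was called above both maltose and Avicel on xylan-galactomannan, by 2.84 and 2.43 log2, with no call against a plant substrate.

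The remaining annotated members, 1437097, 1437440 and 1287299, have a KOG class only. The first, 1437097, had 5402, 5442 and 5576 normalized counts on xylan-galactomannan, against 2057 to 5145 over the plant libraries, 135, 58.9 and 48.3 on Avicel and 427, 409.9 and 396 on maltose. Its Avicel libraries were the lowest, below every maltose library, and all xylan-galactomannan libraries were above every plant library. For 1437440 the normalized counts were 5137, 7953 and 3609 on xylan-galactomannan, against 5149 to 11090.2 over the plant libraries, 2671, 1221 and 2644 on Avicel and 774, 872 and 459 on maltose. Its fold change against Avicel, 1.31 (standard error 0.31, edgeR adjusted p = 0.00202), fell under the fold limit without xylan-galactomannan replicate 2, at 0.98. For 1287299, xylan-galactomannan gave 2407, 2053 and 3231 normalized counts, against 6223 to 9302 over the plant libraries, 1987, 2696 and 2268 on Avicel and 1601, 1706 and 1353 on maltose. Here xylan-galactomannan overlapped Avicel and lay below every plant library, with log2 fold changes of -1.59 (standard error 0.21, edgeR adjusted p = 7.25e-06) against pine and -1.52 and -1.42 against aspen and wheat straw. Of the 13 annotated members, 12 were called higher on xylan-galactomannan than on maltose, as were 93 of all 108 members and 19.4% of all genes. The annotated member without that call was 1287299, at 0.76 (standard error 0.21, edgeR adjusted p = 0.00504).

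**Figure D4:**
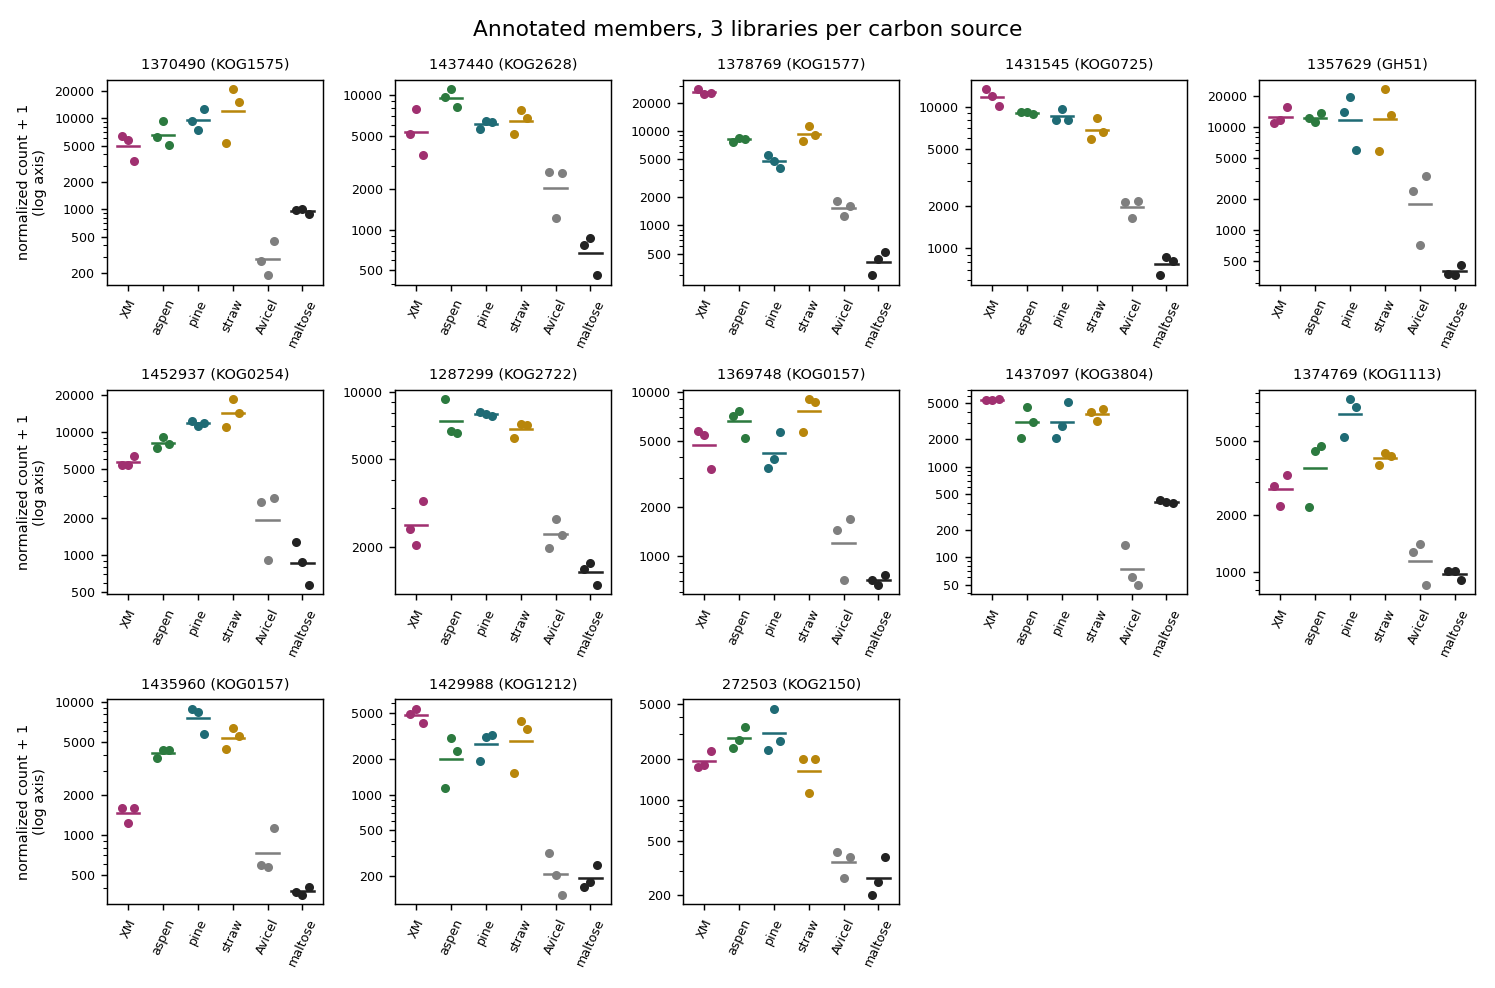
Normalized counts plus 1 (log axis) of the 13 annotated members in each library, by carbon source (XM, xylan-galactomannan; straw, wheat straw). Points are the 3 libraries and bars the mean of their logs. In 1378769 the xylan-galactomannan libraries are the highest, in 1287299 they lie with Avicel below the plant libraries, and in 1437097 the Avicel libraries are the lowest.

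Annotated genes of the same roles were taken from the study's lists, so members outside those lists had no annotation to count. The lists were chosen on these libraries. The study kept genes higher on a plant substrate than on maltose, from groups strongly transcribed there and less so on either control. Higher calls against maltose and Avicel, and lower calls against the plant substrates, are favoured by that choice. Of 31 CAZymes in those lists 1 is a member, and 25 were called higher and 0 lower on xylan-galactomannan than on maltose in edgeR, while 23 were higher and 2 lower than on Avicel. The shares of all genes called higher and lower were 19.4% and 14.5% against maltose and 16.3% and 14.2% against Avicel, and they stand beside each of the maltose and Avicel counts that follow. Their median log2 fold change against maltose was 3.51, against 0.01 over all genes. Of 8 cytochromes P450 (2 members), 5 were higher and 0 lower than on maltose, and 3 higher and 1 lower than on Avicel. Of 6 aldo-keto reductases (2 members), 5 were higher than on maltose, and 5 higher and 1 lower than on Avicel. Of 9 NAD(P) dehydrogenases (1 member), 6 were higher and 1 lower than on maltose, and 8 higher than on Avicel. Of 7 major facilitator transporters (1 member), 2 were higher and 1 lower in each comparison, near those shares. The secreted proteases, 3 genes without a member, had 2 higher than on maltose and 3 higher than on Avicel. In the map nodes that the study marks as common to the plant substrates 108 genes are listed, 10 of them members. Of the 108, 55 were higher and 1 lower than on maltose, and 44 higher and 5 lower than on Avicel. Against aspen 6 were higher and 39 lower, against pine 2 and 61, and against wheat straw 6 and 37. The CAZymes had 5 and 11, 3 and 12, and 5 and 7 in the same order. The shares of all genes were 11.1% and 13.3%, 18.1% and 18.5%, and 11.2% and 12.1%. The smaller lists are not given against the plant substrates.

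The most strongly transcribed members, compared per length, have no annotated role. The short model 1362422, of 489 bases, averaged 5608 RPKM over the plant libraries and had 5078, 4435 and 6286 RPKM on xylan-galactomannan, against 3832 to 6899 RPKM over the plant libraries, 1259, 1078 and 1308 on Avicel and 1138, 1466 and 1213 on maltose. The next, 1451576, had 6841, 4715 and 7357 RPKM on xylan-galactomannan, against 3266 to 5040.3 over the plant libraries, 869, 1084 and 962 on Avicel and 656, 834 and 1129.9 on maltose. Its normalized counts were 633404, 433524 and 611535 on xylan-galactomannan, against 71572, 93154 and 86759.9 on Avicel and 71315, 90633 and 99425 on maltose. By this measure the xylan-galactomannan libraries lay within the plant range of 351639 to 675174, which in RPKM they did not all do. Both genes rose on xylan-galactomannan, 1362422 by 1.88 (standard error 0.22, edgeR adjusted p = 1.36e-06) and 1451576 by 2.72 (standard error 0.26, edgeR adjusted p = 7.61e-08) log2 against maltose, and neither was called against a plant substrate or between Avicel and maltose.

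For 1703 the RPKM were 1234, 848 and 1313 on xylan-galactomannan, against 1407 to 2581 over the plant libraries, 449.8, 388 and 382 on Avicel and 339, 357 and 352 on maltose. It stood between the groups, higher than on maltose by 1.54 (standard error 0.22, edgeR adjusted p = 1.21e-05) and lower than on pine, at -1.28 (standard error 0.22, edgeR adjusted p = 8.63e-05) log2. The member 1448917 had 359, 380.3 and 509.5 RPKM on xylan-galactomannan, against 619.6 to 935 over the plant libraries, 223, 198 and 461 on Avicel and 242, 207 and 194 on maltose. Avicel replicate 3 of this gene reached the xylan-galactomannan range, and xylan-galactomannan was called against neither maltose, at 0.79 log2, nor Avicel, at 0.49 log2, but was lower than on pine, at -1.64 (standard error 0.30, edgeR adjusted p = 0.000171) log2. With 236, 250.3 and 268 RPKM on xylan-galactomannan, against 300.1 to 984 over the plant libraries, 158, 104 and 232 on Avicel and 90.5, 77.1 and 84.3 on maltose, 1469297 was below every plant library. Its log2 fold change was -2.13 (standard error 0.31, edgeR adjusted p = 5.58e-05) against aspen and 1.42 (standard error 0.31, edgeR adjusted p = 0.000756) against maltose. The call against pine, at -1.38, fell under the fold limit without pine replicate 2, at -0.95.

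The members with the widest gap between plant and control levels were 1430411, 1462030, 1413494, 1430982 and 1402619, with gaps of 5.46, 3.89, 3.80, 3.78 and 3.68 log2, and none has an annotated role. The first of them, 1430411, had 1932, 1883 and 2083 normalized counts on xylan-galactomannan, against 1936 to 4687 over the plant libraries, 86.9, 67.0 and 53.1 on Avicel and 31.1, 15.6 and 24.7 on maltose. Its levels (log2, SD, n = 3) were 10.94 ± 0.08 on xylan-galactomannan, against 11.77 ± 0.28 on aspen, 11.73 ± 0.37 on pine, 11.57 ± 0.64 on wheat straw, 6.10 ± 0.35 on Avicel and 4.58 ± 0.48 on maltose. It rose on xylan-galactomannan by 6.40 (standard error 0.37, edgeR adjusted p = 3.65e-10) log2 against maltose and by 4.81 (standard error 0.33, edgeR adjusted p = 7.92e-09) against Avicel, and all differences from the plant substrates were within 1 log2. The gene 1402619 was alike, with 1757, 2373 and 1739 normalized counts on xylan-galactomannan, against 1444 to 2691 over the plant libraries, 117, 93.2 and 199.9 on Avicel and 16.7, 24.0 and 31.7 on maltose. Its Avicel libraries were all above its maltose libraries, by 2.55 (standard error 0.30) log2, given as a description since both levels entered the rule.

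Lower counts carried the other members of this group. The gene 1462030 had 311, 327 and 325 normalized counts on xylan-galactomannan, against 379 to 908 over the plant libraries, 35.4, 22.9 and 38.6 on Avicel and 6.67, 14.6 and 13.9 on maltose, and it was lower on xylan-galactomannan than on pine, at -1.29 (standard error 0.25, edgeR adjusted p = 0.000244) log2. For 1413494 the libraries of xylan-galactomannan were far apart, at 903, 1453 and 342 normalized counts, against 259.5 to 1405 over the plant libraries, 54.7, 18 and 40.6 on Avicel and 15.6, 14.6 and 9.90 on maltose. For 1430982 they were 565, 738 and 663, against 233 to 1148 over the plant libraries, 62.8, 24.5 and 38.6 on Avicel and 15.6, 18.8 and 13.9 on maltose. In both, xylan-galactomannan lay above all Avicel and maltose libraries and was called against no plant substrate, with log2 fold changes against maltose of 6.08 (standard error 0.64, edgeR adjusted p = 3.29e-07) and 5.37 (standard error 0.53, edgeR adjusted p = 1.48e-07).

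Higher on xylan-galactomannan than on every plant substrate were 8 members, and 6 of them lie in 2 runs of neighbouring loci on the public Pycco1 assembly. All of the members matched a locus tag of that assembly, which names no chromosome for its genes, so their order is given without coordinates. One run is made of 1444546, 1434549 and 1467006, and the other of 1261180, 1378769 and 1260776, each without another locus between its members. The 5 members furthest above the plant mean on xylan-galactomannan, 1444546, 1434549, 1378769, 1261180 and 1260776, are all in these runs and were named for that difference, which is given without a test, with values of 2.38, 2.25, 1.86, 1.85 and 1.63 log2. No role is stated for them other than the aldo-keto reductase class of 1378769.

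In the first run, 1444546 had 87013, 79795 and 53229.9 normalized counts on xylan-galactomannan, against 18772, 16923 and 16471 on aspen, 16811, 15949 and 11529 on pine, 8905, 13062 and 9812 on wheat straw, 2329.9, 1095 and 2462 on Avicel and 2378, 2665 and 2793 on maltose. Next to it, 1434549 had 4807, 4512 and 2947 on xylan-galactomannan, against 1044, 806 and 1023 on aspen, 1022, 932 and 891 on pine, 553, 829 and 613 on wheat straw, 220.4, 101 and 143 on Avicel and 45.6, 41.7 and 87.1 on maltose. The third, 1467006, which was named after its values were seen, had 1038, 1215 and 679.5 on xylan-galactomannan, against 222 to 561 over the plant libraries, 53.1, 48.2 and 63.7 on Avicel and 40.0, 51.1 and 67.3 on maltose. In each of these genes every xylan-galactomannan library was above every plant library, and replicate 3 was the lowest of them. The log2 fold changes of 1444546 were 2.09 (standard error 0.28) against aspen, 2.34 (standard error 0.29) against pine and 2.77 (standard error 0.29) against wheat straw. Those of 1434549 were 2.11, 2.13 and 2.60 against the same substrates, and those of 1467006 1.81, 1.65 and 1.21. The call of 1467006 against wheat straw was lost without wheat straw replicate 1, at 0.97, or without xylan-galactomannan replicate 2, at 0.99.

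In the second run, 1261180 had 1000.4, 1229.9 and 995 normalized counts on xylan-galactomannan, against 173 to 454 over the plant libraries, 82.1, 41.7 and 29.9 on Avicel and 11.1, 26.1 and 15.8 on maltose. The aldo-keto reductase gene 1378769 beside it had 27921, 24441 and 25440.3, against 7744, 8417 and 8329 on aspen, 5591, 4867 and 4087 on pine, 7839, 11384 and 9136 on wheat straw, 1793, 1261 and 1608 on Avicel and 295, 444 and 518 on maltose. For 1260776 the normalized counts were 4009.7, 2344 and 3659 on xylan-galactomannan, against 599.5 to 1800.2 over the plant libraries, 305, 229.7 and 256 on Avicel and 73.4, 108 and 102 on maltose. Again every xylan-galactomannan library exceeded every plant library, and every Avicel library exceeded every maltose library. The log2 fold changes of 1378769 were 2.45 (standard error 0.23) against pine, 1.69 against aspen and 1.44 against wheat straw. These models overlap, 1261180 and 1378769 by 183 bases and 1378769 and 1260776 by 225 bases, and whether the counting used strand is not given in the sources used here, so their counts cannot be told apart with certainty. In the first run only 1434549 and 1467006 overlap, by 3 bases.

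The other members higher than on every plant substrate were 1410864 and 1432838, also named after their values were seen. The first had 1116, 1289 and 683 normalized counts on xylan-galactomannan, against 236 to 693 over the plant libraries, 114, 94.0 and 102 on Avicel and 122, 118 and 123 on maltose. Its lowest xylan-galactomannan library was below the highest plant library, and the call against wheat straw was lost without wheat straw replicate 1, at 0.83, or without xylan-galactomannan replicate 2, at 0.92. The second had 2811, 2449 and 2475, against 650.0 to 1433 over the plant libraries, 222, 98.1 and 182 on Avicel and 305, 329.6 and 305 on maltose. Here the groups did not overlap, but the call against pine, at 1.02 log2, sat at the fold limit and was lost with DESeq2, at 0.98, without pine replicate 2 or 3, at 0.98 and 0.99, and without xylan-galactomannan replicate 1, at 0.97.

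At the other end, the members furthest below the plant mean on xylan-galactomannan were 1446717, 1257064, 1412788, 1036392 and 1401603, named for that difference, with values of -2.28, -2.26, -2.22, -2.10 and -2.06 log2. The protein of 1401603 has a predicted signal peptide and no stated role, and nothing is stated for the others. It had 822, 1483 and 1015 normalized counts on xylan-galactomannan, against 4258, 4022 and 3612 on aspen, 3215, 3434 and 5894 on pine, 8643, 3958 and 5324 on wheat straw, 1066, 869.9 and 829.7 on Avicel and 916, 1079.6 and 786 on maltose. The xylan-galactomannan libraries thus overlapped the Avicel and maltose libraries and lay below every plant library, with a log2 fold change of -2.45 (standard error 0.29) against wheat straw and -1.82 and -1.88 against aspen and pine. Likewise, 1412788 had 611, 677 and 548, against 1475 to 6599.9 over the plant libraries, 613, 553 and 398 on Avicel and 649, 827 and 957 on maltose, and 1446717 had 58.1, 82.1 and 143, against 359 to 536 over the plant libraries, 69.2, 68.7 and 114 on Avicel and 60.05, 102 and 111 on maltose. Both were called lower than on each plant substrate, with log2 fold changes of -2.17, -2.36 and -2.52 for 1412788 and -2.23, -2.23 and -2.05 for 1446717 against aspen, pine and wheat straw. Neither was called against Avicel or maltose.

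The other genes at this end carried few counts. In raw counts 1257064 had 0, 2 and 6 on xylan-galactomannan, against 11, 15 and 8 on aspen, 8, 8 and 14 on pine, 16, 10 and 22 on wheat straw, 0, 18 and 4 on Avicel and 0, 0 and 10 on maltose. It was called in no comparison with xylan-galactomannan, although its xylan-galactomannan libraries, at 0, 2.35 and 4.89 normalized counts, were all below its plant libraries, at 6.83 to 22.2. For 1036392 the raw counts were 22, 1 and 33 on xylan-galactomannan, against 34, 38 and 46 on aspen, 29, 39 and 58 on pine, 59, 39 and 81 on wheat straw, 25, 9 and 9 on Avicel and 5, 6 and 12 on maltose. Its call against pine, -1.74 (standard error 0.61), was lost without xylan-galactomannan replicate 2, the library with 1 count, at -1.25, and without pine replicate 3, at -1.26.

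**Figure D5:**
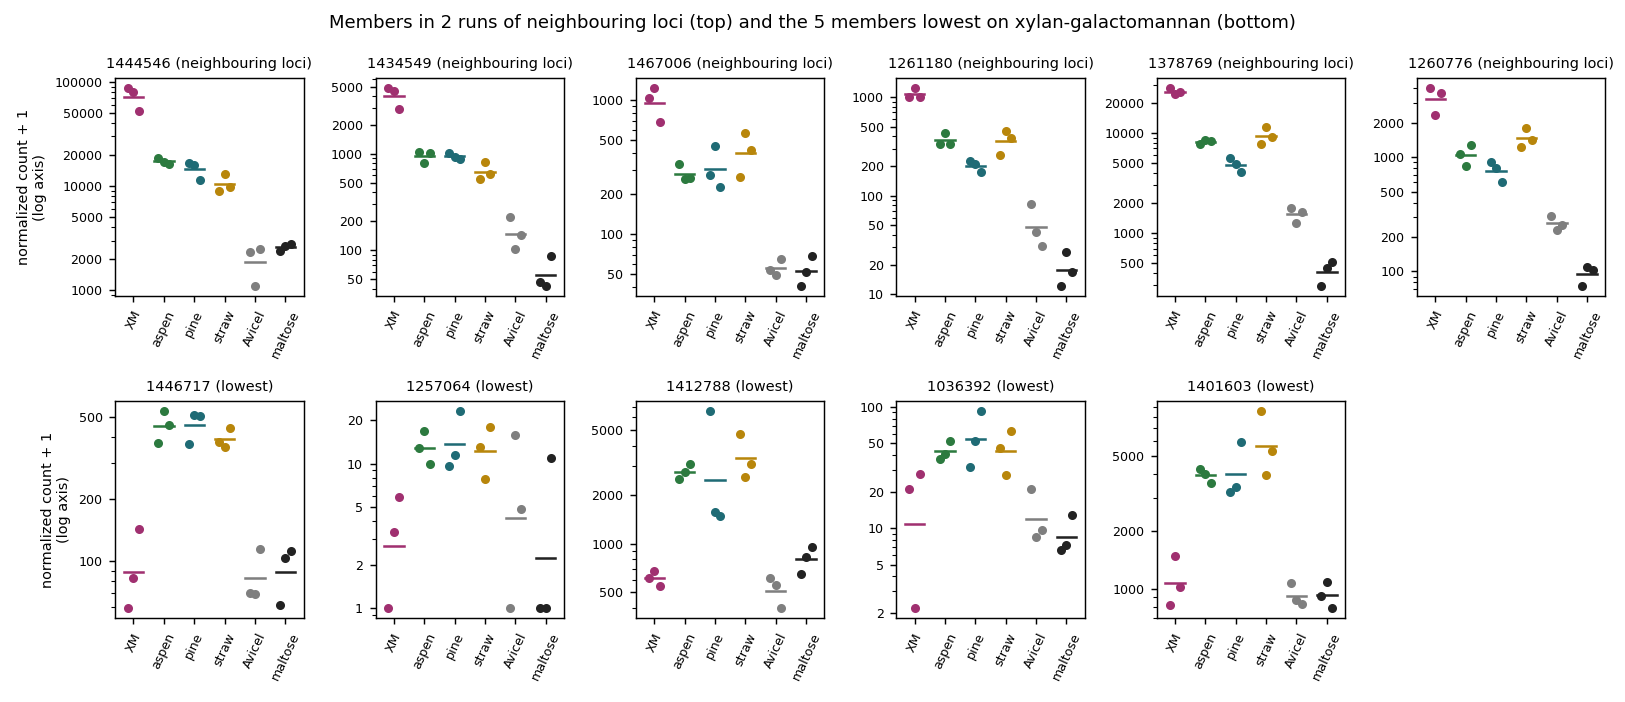
Normalized counts plus 1 (log axis) by carbon source for the 6 members of 2 runs of neighbouring loci (top) and the 5 members furthest below the plant mean on xylan-galactomannan (bottom). Points are the 3 libraries and bars the mean of their logs (XM, xylan-galactomannan; straw, wheat straw). All xylan-galactomannan libraries of the top row exceed all plant libraries, while those of 1446717, 1412788 and 1401603 lie near Avicel and maltose.

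Between the control substrates the rule set no direction, and Avicel levels exceeded maltose levels in 81 of the 108 members, with a median difference of 0.59 log2, against 0.05 over all genes tested. In edgeR, 39 members were called higher on Avicel than on maltose and 3 lower, beside 14.6% of all genes in each direction. Both levels entered the rule, which did not use their difference but kept both below the plant levels. The genes that follow were named for the size of this difference, so it is given for them as a description, with no test. The largest rise was that of 271638, a predicted secreted protein of no stated role, with 438, 374 and 316 normalized counts on Avicel, against 8.90, 2.09 and 5.94 on maltose. Its fold change was 6.10 (standard error 0.59) log2, and on xylan-galactomannan it had 1046, 766 and 818, against 1470.4 to 6936 over the plant libraries. Its call of xylan-galactomannan against Avicel, 1.20 (standard error 0.41, edgeR adjusted p = 0.0211), was lost without xylan-galactomannan replicate 1, at 1.07 (edgeR adjusted p = 0.0694), without Avicel replicate 2, at 1.19 (edgeR adjusted p = 0.0541), and without Avicel replicate 3, at 1.11 (edgeR adjusted p = 0.065). The gene 1460350 had 93.3, 57.2 and 178 normalized counts on Avicel, against 2.22, 0 and 19.8 on maltose, where most of its reads came from replicate 3, and rose by 3.89 (standard error 0.64) log2. In raw counts, 1481388 had 22, 32 and 38 on Avicel, against 0, 2 and 0 on maltose, too few for a fold change.

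The 3 members lower on Avicel than on maltose were 1437097, 1370490 and 1435771. The KOG-classified gene 1437097 had 135, 58.9 and 48.3 normalized counts on Avicel, against 427, 409.9 and 396 on maltose, and fell by 2.29 (standard error 0.37) log2. The aldo-keto reductase gene 1370490 had 269, 186 and 450.1, against 974, 991 and 873 on maltose, and fell by 1.58 (standard error 0.41). For 1435771, with 31.4, 50.7 and 3.86 on Avicel, against 73.4, 139.8 and 142 on maltose, Avicel replicate 3 was far below the others, and the log2 fold change was -1.98 (standard error 0.60). In all of these, no Avicel library reached a maltose library. Of 1435771 the xylan-galactomannan libraries held 324, 215 and 87.3 normalized counts, against 275 to 952 over the plant libraries, and the call against pine, -1.30 (standard error 0.54, edgeR adjusted p = 0.0498), was at the threshold. It was lost without pine replicate 3, at -0.56, and without xylan-galactomannan replicate 3, at -0.94, and also with the replicate block, with DESeq2, and without any single aspen, wheat straw or maltose library, xylan-galactomannan replicate 2 or Avicel replicate 1.

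Neighbouring members were found beyond these runs, and those described here were chosen after their values were seen. In all, 7 pairs of members are adjacent loci among the 13016 loci of the assembly and 14 pairs lie within 3 loci of each other. Each of the runs above counts as several of these pairs. No expected number of pairs was computed, so clustering of the members was not tested. The adjacent genes 1437246 and 675342 had 428, 529 and 351 and 2611, 2369.6 and 1843 normalized counts on xylan-galactomannan, against 259 to 621 and 1409 to 3094 over the plant libraries. On Avicel they had 39.2 to 50.2 and 181 to 238, and on maltose 18.9 to 26.1 and 108 to 155. Both were called higher on xylan-galactomannan than on maltose, by 4.33 and 4.10 log2, and the abundant 1469297, which was lower on xylan-galactomannan than on each plant substrate, lies near them. The member with the highest mean RPKM over the plant libraries, 1362422, is adjacent to 1232370, which had 1438, 1599 and 1705 normalized counts on xylan-galactomannan, against 856 to 2003 over the plant libraries, 265, 173 and 268 on Avicel and 286, 477 and 246 on maltose. Of the members, 27 (25.0%) overlap another gene model, close to the 24.4% of all loci, and 6 of the 7 adjacent pairs overlap each other, 1362422 and 1232370 by 167 bases and 1437246 and 675342 by 75, so that shared reads make their counts uncertain.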

How the data were processed

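PolyA RNA of Pycco 310 was sequenced in 3 libraries on each of 6 carbon sources, and the groups follow the agent given in the sample labels. The methods describe independent cultures for every carbon source but xylan-galactomannan, which they do not mention, so p-values with it measure the spread between these libraries, which may be technical in that group. The authors mapped the reads with TopHat 2 after the JGI quality pipeline and counted them per gene model with HTSeq. The deposited tables hold these raw read counts per gene, not normalized, beside RPKM values that the authors computed from the counts and the mappable length. Genes are given by their JGI protein identifiers, as in the tables. Counts totalled 26370228 to 42190522 per library.

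Levels were computed with median-of-ratios size factors (0.631 to 1.46) over the 10728 genes without a zero count, with a pseudocount of 1. Tests used edgeR 4.0.16 in R 4.3.3: TMM normalization, the filterByExpr low-count filter, 1 quasi-likelihood fit of all 18 libraries and Benjamini-Hochberg adjustment over all 11168 genes tested. A call needed a change of more than 1 log2 in either direction with an adjusted p below 0.05, and standard errors were the log2 fold change divided by the square root of F. RPKM served to compare levels between genes and to give the library values of the members with the highest plant RPKM. For those members it was also compared between carbon sources, scaled to the library total and not to the size factors. All calls and fold changes came from the counts. The fits were tested on simulated data.

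The members and gene lists were chosen with earlier results of these data known. The text names the annotated members, the 5 with the widest gap, the 5 with the highest plant RPKM, the 5 highest and 5 lowest on xylan-galactomannan relative to the plant mean, the 3 furthest above and below maltose on Avicel, and the 3 genes nearest each side of each limit. Alternatives were RLE normalization, DESeq2 1.42.0, no low-count filter, a fit of only the groups compared, a replicate block, no fold limit, other limits and scales for the rule, and leaving out each library in turn. Neighbouring and overlapping loci were read from the RefSeq gene table of the Pycco1 assembly, in which 12680 gene models and all members were matched.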

Additional observations from a re-analysis of the deposited data

How the results depend on the processing

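No count of members reversed its direction under any alternative run. Without a fold limit, 5 members were lower on Avicel than on maltose instead of 3. A gap limit of 1 log2 gave 260 members and one of 2 log2 gave 51, and leaving out 1 library gave 93 members (without Avicel replicate 2) to 131 (without Avicel replicate 3). Leaving out each library in turn, 91 to 94 members were higher on xylan-galactomannan than on maltose and 79 to 89 higher than on Avicel, with 0 lower, and 77 to 87 were higher than both. Against aspen 10 to 14 were higher and 17 to 23 lower, against pine 10 to 12 and 26 to 34, and against wheat straw 9 to 13 and 21 to 27. Of the members, 6 to 11 were higher and 13 to 17 lower than on all the plant substrates, and 53 to 60 had no call against any. On Avicel 33 to 42 were higher and 3 to 4 lower than on maltose. Shares of all genes in these fits, and in the replicate block below, are not given here. In the main fit, 19.4% and 16.3% of all genes were called higher on xylan-galactomannan than on maltose and Avicel. Against aspen, pine and wheat straw, 11.1%, 18.1% and 11.2% were higher and 13.3%, 18.5% and 12.1% lower. For Avicel against maltose the share was 14.6% in each direction.

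Replicate numbers did not pair the libraries consistently: deviations of same-numbered libraries correlated at -0.149 to 0.321. In 0 of 15 pairs of groups did every number exceed 0.1. For number 3, though, all pairs of groups without Avicel were positive, from 0.035 (aspen and pine) to 0.267 (wheat straw and xylan-galactomannan). Whether those libraries share an effect was not tested. With the replicate block, 93 members were higher on xylan-galactomannan than on maltose and 88 higher than on Avicel, 11 higher and 23 lower than on aspen, 12 and 32 for pine, 11 and 26 for wheat straw, and on Avicel 41 higher and 3 lower than on maltose. For single named genes, 53 of 3174 alternative values lost the call and 0 reversed. Many of these values left out a library outside the groups compared, which moves a fold change little, and many genes were named for extreme values. The small share lost is thus partly built in. Depth limits the weakly transcribed members: 15 had a library without a count, and 5 had 3 or fewer counts over the maltose libraries.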
